A study of Mus musculus with 4 samples.

Results

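The genes described here encode the enzymes, transporters and regulators of glycolysis, lactate metabolism and the pentose phosphate pathway, 40 genes in all out of 31829 gene names on the array. They were chosen by name, and their probes were the spots other than controls that the array files list under those names. The study compared gene expression in WT (p53+/+) and p53-/- mouse embryonic fibroblasts (MEFs), each untreated or exposed to doxorubicin, a DNA-damaging drug that traps topoisomerase II on DNA. Each of the 4 conditions, WT and p53-/- MEFs without and with the drug, had 1 array, all on 1 slide. Neither the number of embryos nor the dose and time of doxorubicin for the arrays is given in the sources used here. A ratio between conditions therefore has no replicate check, no p-value was calculated, and condition and place on the slide cannot be told apart.

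Glycolysis turns glucose into pyruvate and yields ATP and NADH, and lactate dehydrogenase regenerates NAD+ by reducing pyruvate to lactate. Pyruvate otherwise enters mitochondria through pyruvate dehydrogenase, which the PDK kinases switch off by phosphorylation. The pentose phosphate pathway branches off at glucose 6-phosphate and supplies NADPH and ribose 5-phosphate, the sugar of nucleotides. Proliferating fibroblasts in culture are known for high glycolytic flux. p53 is known to act on this network at several points, and hypoxia-inducible factors and MYC are known activators of many glycolytic genes.

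Several steps of glycolysis are served by isoforms from separate genes. It was isoforms other than Ldha, Aldoa and Eno1 that differed by at least 2-fold between conditions. The promoters of both members of an isoform pair, and of genes that were lower with doxorubicin in both genotypes, are shown because these are the members the results turn on. Each is the 250 bases before the most upstream RefSeq start, in build GRCm38.p6, and capitals mark ACGTG or GCGTG, the core that hypoxia-inducible factors bind, on either strand (read as CACGT or CACGC on the other strand). The E-box CACGTG, bound by MYC and MondoA family factors, holds ACGTG on both strands and is therefore also in capitals. Ldha and Ldhb encode the subunits of lactate dehydrogenase.
Ldha (chr7:46845554-46845803, plus strand): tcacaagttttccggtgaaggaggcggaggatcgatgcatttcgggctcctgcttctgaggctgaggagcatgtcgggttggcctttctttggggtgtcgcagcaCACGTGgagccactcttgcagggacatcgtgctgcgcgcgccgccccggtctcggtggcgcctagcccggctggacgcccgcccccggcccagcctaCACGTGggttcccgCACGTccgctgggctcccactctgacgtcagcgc
Ldhb (chr6:142507958-142508207, minus strand): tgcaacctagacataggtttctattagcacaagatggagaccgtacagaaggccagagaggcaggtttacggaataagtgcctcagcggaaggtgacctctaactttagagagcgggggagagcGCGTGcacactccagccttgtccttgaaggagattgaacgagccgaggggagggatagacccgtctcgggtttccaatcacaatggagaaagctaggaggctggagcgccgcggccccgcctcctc
Eno1 and Eno3 encode the ubiquitous and the muscle enolase.
Eno1 (chr4:150236458-150236707, plus strand): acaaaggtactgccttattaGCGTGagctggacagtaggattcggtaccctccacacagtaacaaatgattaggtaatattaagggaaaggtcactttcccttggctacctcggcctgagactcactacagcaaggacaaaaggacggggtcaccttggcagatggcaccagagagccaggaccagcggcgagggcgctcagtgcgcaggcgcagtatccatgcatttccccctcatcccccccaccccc
Eno3 (chr11:70656926-70657175, plus strand): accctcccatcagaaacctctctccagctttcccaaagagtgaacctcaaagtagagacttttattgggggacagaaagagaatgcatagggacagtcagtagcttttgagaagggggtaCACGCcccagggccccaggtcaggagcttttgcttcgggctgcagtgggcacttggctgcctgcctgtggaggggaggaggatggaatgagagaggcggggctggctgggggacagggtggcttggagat
Slc16a3 encodes the lactate exporter MCT4, and Pdk1 a pyruvate dehydrogenase kinase.
Slc16a3 (chr11:120948817-120949066, plus strand): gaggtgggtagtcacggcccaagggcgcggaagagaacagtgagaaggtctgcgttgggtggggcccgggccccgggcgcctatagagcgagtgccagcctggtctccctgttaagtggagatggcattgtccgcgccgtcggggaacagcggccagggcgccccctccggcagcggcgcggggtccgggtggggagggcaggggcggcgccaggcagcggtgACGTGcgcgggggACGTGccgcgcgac
Pdk1 (chr2:71872974-71873223, plus strand): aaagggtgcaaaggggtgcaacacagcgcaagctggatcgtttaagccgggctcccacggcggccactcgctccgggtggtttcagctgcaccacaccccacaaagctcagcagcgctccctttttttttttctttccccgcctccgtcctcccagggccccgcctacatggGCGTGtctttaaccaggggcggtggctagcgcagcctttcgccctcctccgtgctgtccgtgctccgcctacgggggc
The Ldha window held 5 matches to the core, 4 of them in 2 E-boxes, and the Ldhb window held 1 match and 0 E-boxes. The Eno1, Eno3 and Pdk1 windows held 1 match each, and that of Slc16a3 held 2. RefSeq promoters were matched for 38 members. Of these, 34 (89.5%) held the core before at least 1 of their starts, against 41.5% of 27025 genes, and 6 (15.8%) held an E-box, against 6.86%. The windows of the members were also richer in G and C, with a median of 59.4% against 52.4% for all windows. A match describes letters only, and binding was not measured.

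The deposited intensities were scaled to the 75th percentile of each array, and values are log2 ratios of scaled intensities unless called signals. Signals are the deposited intensities before this scaling. The quotient of 2 signals can therefore differ from the ratio or fold printed beside them. A member counted as measured if Feature Extraction marked its spot as well above background on each array compared. Of the 40 members, 39 were measured on all 4 arrays, with signals from 98.5 to 387669. Pgam2, the muscle phosphoglycerate mutase, was well above background only in untreated WT MEFs. Its signal there was 114, close to the brightest negative control of that array (108), and its signals elsewhere were 61.4, 72.2 and 74.6. The untreated WT signal was at least 1.63-fold higher than the doxorubicin-treated WT signal, with the treated signal taken at its own value because it exceeded the lowest signal called well above background there (44.3). Spots of probes printed 10 times on an array had a pooled SD of 0.08, which comes to 0.12 for a ratio and to 0.16 where 2 ratios are subtracted. Such spots share the culture and the labeling reaction, so this is not a biological error. Signals of different probes depend on the probe and were not set against each other. In bulk RNA, fewer cells of a type and less RNA per cell cannot be told apart.

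The Trp53 probe had signals of 1228 and 3442 in untreated and doxorubicin-treated WT MEFs, and 442 and 543 in p53-/- MEFs. After scaling, its ratios with doxorubicin were 1.68 in WT and −0.07 in p53-/- MEFs. Whether the deletion in these mice takes out this probe was not analysed here. All 11 fibroblast markers were well above background on every array, with summed unscaled signals from 1264998 to 1812584, but 5 of them were at least 2-fold lower with doxorubicin in WT and 2 in p53-/- MEFs. Lum (−4.81 and −2.34) and Pdgfrb (−2.44 and −1.73) were lower in both, and Pdgfra (−3.36), Postn (−1.53) and Dcn (−1.30) in WT MEFs. Pdgfra, Postn and Dcn were at −0.89, −0.75 and 0.30 in p53-/- MEFs. Between genotypes, Lum (−1.34) and Dcn (−1.14) were at least 2-fold lower in untreated p53-/- than in untreated WT MEFs. With doxorubicin, Pdgfra (3.22) and Lum (1.13) were at least 2-fold higher in p53-/- than in WT MEFs. Marker lists of other cell types were mixed. Of 8 skeletal muscle markers 4 were measured in each genotype (Acta1, Des, Myh3 and Tnnt3), while Myod1, Ckm and Mb were not well above background on any array. Of the adipocyte and liver lists only Fabp4 and Afp were measured, and Fabp4 was higher in p53-/- MEFs (1.98). Of the neural, epithelial, endothelial and leukocyte lists 3 of 6, 2 of 5, 2 of 4 and 4 of 6 markers were well above background in untreated WT MEFs, and 0 of 3 of the erythroid list. The bright ones were Snap25, Krt18, Kdr and Itgam. Krt18 was higher with doxorubicin in p53-/- MEFs (1.91 against 0.91 in WT MEFs), and the neurofilament gene Nefl was at least 2-fold higher in both genotypes. Their part in the results below was not tested.

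Doxorubicin split the glycolytic genes in WT MEFs. Ldhb, Pdk4, G6pdx, Slc2a4, Pfkfb2, Pfkfb3, Rpia and Eno2 were at least 2-fold higher, and Aldoc, Slc16a3, Pdk1, Pfkfb1 and Hk2 at least 2-fold lower. These are 8 and 5 of 39 measured members (20.5% and 12.8%), against 11.0% and 10.4% of all 17546 genes measured. The median ratio of the members was −0.06, against 0.01 for all genes, and 18 members (46.2%) were within 1.5-fold, against 59.3% of all genes. In p53-/- MEFs, 6 members were higher (Pdk4, Eno3, Pfkfb3, Pfkfb2, Pfkp and Rpia) and 4 lower (Pgls, Slc16a3, Pfkl and Pdk1). These are 15.4% and 10.3% of the members, against 9.24% and 6.89% of 16981 genes, and the members' median was 0.00. Pdk4, Pfkfb2, Pfkfb3 and Rpia were higher, and Slc16a3 and Pdk1 lower, in both genotypes, which is 6 of 13 (46.2%) in WT and 6 of 10 (60.0%) in p53-/- MEFs. Among the 16538 genes measured on all 4 arrays, 1207 passed 2-fold in the same direction in both, 34.4% of those in WT and 46.4% of those in p53-/- MEFs. Over the 39 members, the ratios of both genotypes had a Pearson correlation of 0.56 (Spearman 0.55), against 0.48 (0.46) over 16538 genes. The genes of each array share its scaling, and genes are not independent replicates. The shares of all genes, 11.0% and 10.4% in WT and 9.24% and 6.89% in p53-/- MEFs, are also the background for the lists of other genes below.

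Scaling to the array median in place of the 75th percentile shifted all genes downward, to a median ratio of −0.27 (WT) and −0.30 (p53-/-). The split of the members then turned from 8 higher and 5 lower to 4 and 8 in WT MEFs, and from 6 and 4 to 2 and 5 in p53-/- MEFs. For all genes it turned from 1935 and 1831 to 1321 and 2797, and from 1569 and 1170 to 956 and 2104. Quantile normalization gave 4 higher and 5 lower members in p53-/- MEFs. The balance of higher against lower members with doxorubicin therefore depends on the scaling. The 5 and 4 members counted below by the difference between genotypes stayed 5 and 4 under each scaling. The shifts of −0.27 and −0.30 nearly cancel in that difference, so these counts could hardly move under the array median.

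**Figure D1:**
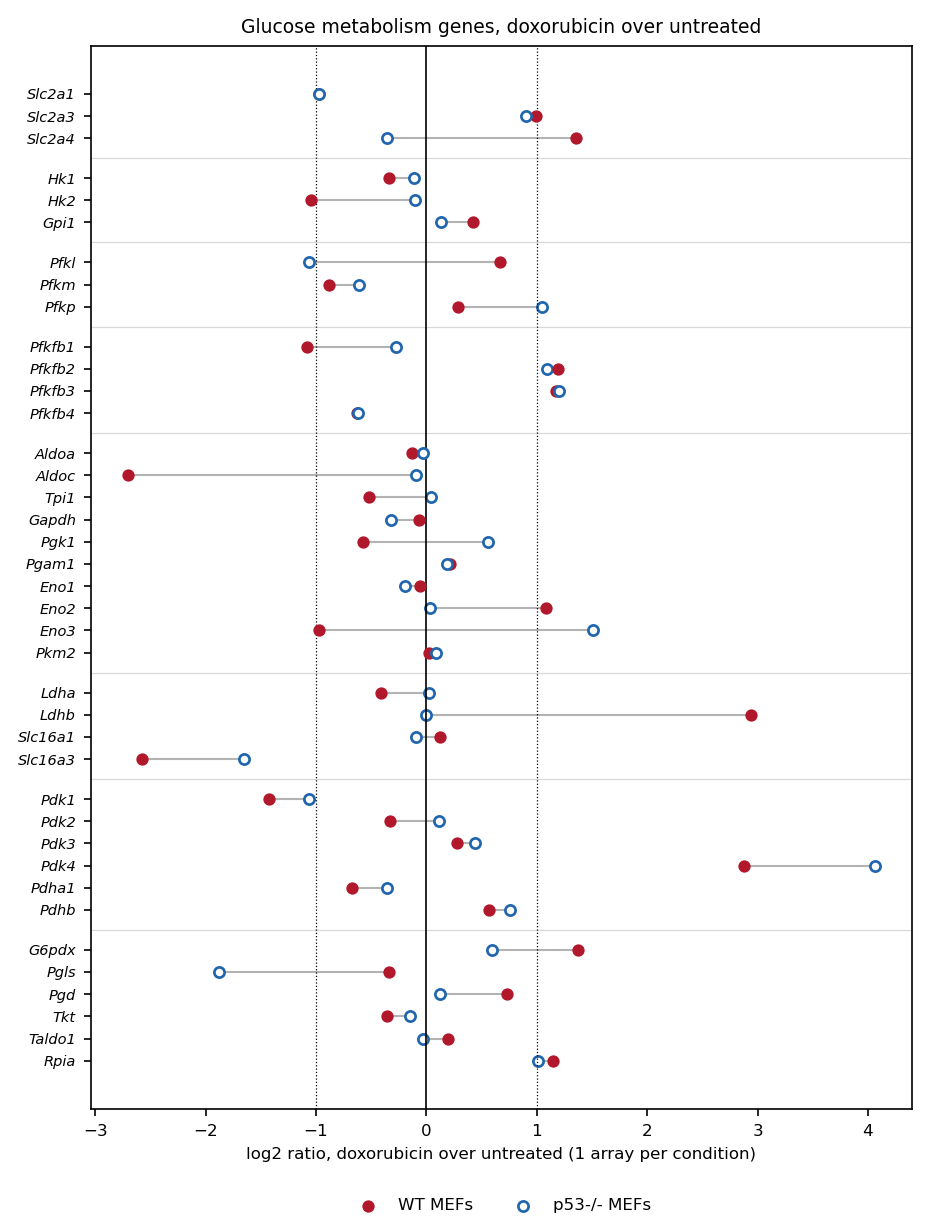
Log2 ratio of doxorubicin-treated over untreated MEFs for the 39 measured members, ordered by role, with filled points for WT and open points for p53-/- MEFs (1 array per condition, no error bar). Dotted lines mark 2-fold; Ldhb (2.94 in WT), Aldoc (−2.70 in WT) and Eno3 (−0.97 and 1.51) show the widest gaps between genotypes.

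The facilitative glucose transporters moved in different directions. Slc2a1 encodes GLUT1, the basal transporter of most cells, and its probe lies on mouse chromosome 4 (mm9, 118809864 to 118809923). Its signals were 20985 without and 9378 with doxorubicin in WT MEFs, and 13443 and 8834 in p53-/- MEFs (signals below are in this order). Both treated arrays were below both untreated arrays, and the ratio was −0.97 in WT and −0.97 in p53-/- MEFs, just short of 2-fold. Where arrays were scaled to their medians it became −1.25 and −1.27, past 2-fold. Slc2a3, the high-affinity transporter GLUT3, went the other way, with signals of 2011 and 3508 in WT and 2430 and 5839 in p53-/- MEFs. Its ratios of 0.99 and 0.90 also lay just inside the 2-fold limit.

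Slc2a4 encodes GLUT4, the insulin-responsive transporter of muscle and fat (mm9, chromosome 11, 69756073 to 69756132). It had signals of 1205 and 2696 in WT and 3324 and 3344 in p53-/- MEFs. Untreated WT MEFs stood below the other 3 arrays, and Slc2a4 was 2.55-fold higher with doxorubicin in WT MEFs but had a ratio of −0.36 in p53-/- MEFs. It was printed 10 times on each array, and the spots ranged from 1129 to 1265 in untreated WT and from 3094 to 3499 in untreated p53-/- MEFs. The spots of these arrays did not overlap. Spots of an array share its culture and labeling, so this shows the precision of spots and is not a replicated difference. The gene was 3.04-fold higher in untreated p53-/- than in untreated WT MEFs, and 41 of 17317 genes had a larger ratio. Among 8 other hexose transporters, 3 of 6 measured in WT MEFs passed 2-fold with doxorubicin. Slc2a9, a urate transporter, was higher (1.98), and Slc2a10 (−2.24) and Slc2a13, a proton-coupled inositol transporter (−1.45), were lower. In p53-/- MEFs 1 of 5 did so, Slc2a10 (−1.54), and Slc2a13 was at −0.89. Slc2a5, a fructose transporter seen only on the treated arrays, was at least 3.93-fold higher in WT and 1.93-fold higher in p53-/- MEFs, and was named after its values were seen.

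Hexose phosphorylation differed by isoform. Hk2, the inducible hexokinase that binds mitochondria, had signals of 4156 and 1771 in WT and 3591 and 4298 in p53-/- MEFs. Doxorubicin-treated WT MEFs were the low array, 2.06-fold below the untreated ones, while the ratio in p53-/- MEFs was −0.11. With normexp background correction the WT ratio no longer passed 2-fold. Hk1, the constitutive hexokinase, gave −0.33 and −0.11, and Gpi1, glucose-6-phosphate isomerase, gave 0.42 and 0.13, with 3 overlapping probes between 0.40 and 0.47 in WT MEFs.

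The 3 subunits of phosphofructokinase, the committing step of glycolysis, each followed a course of their own. Pfkl, the liver-type subunit (mm9, chromosome 10, 77450926 to 77450985), had signals of 2963 and 4130 in WT and 3803 and 2341 in p53-/- MEFs. Doxorubicin-treated WT was the highest array and doxorubicin-treated p53-/- the lowest, with ratios of 0.67 and −1.06 and a difference of 1.73. Of 16538 genes, 421 had a larger difference in this direction. Pfkp, the platelet-type subunit, had signals of 1665 and 1779 in WT and 1538 and 4094 in p53-/- MEFs. The doxorubicin-treated p53-/- array stood apart, 2.07-fold above the untreated one, against a ratio of 0.28 in WT MEFs. A second Pfkp probe stayed between 78.7 and 127 and gave no ratio, and the mean of both probes brought Pfkp under 2-fold. Pfkm, the muscle-type subunit, gave −0.88 and −0.61.

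Fructose 2,6-bisphosphate is the strongest activator of phosphofructokinase, and the bifunctional PFKFB enzymes make and break it. Pfkfb3, whose enzyme has the highest kinase activity of the family (mm9, chromosome 2, 11393453 to 11393512), had signals of 2509 and 4961 in WT and 2953 and 8726 in p53-/- MEFs. Both treated arrays were above both untreated ones, by 2.26-fold and 2.30-fold. A second Pfkfb3 probe was not well above background on the untreated arrays, at 18.3 and 17.5, and reached 83.7 and 155 with doxorubicin. Pfkfb2 had signals of 395 and 790 in WT and 271 and 741 in p53-/- MEFs. It was 2.28-fold and 2.13-fold higher with doxorubicin. Its untreated p53-/- signal of 271 was only a little above the brightest negative control of that array (250.1). Both genes dropped under 2-fold where arrays were scaled to their medians, and so did Pfkfb2 in p53-/- MEFs with quantile normalization or normexp. Pfkfb4 gave −0.63 and −0.62, under 2-fold in both genotypes. Pfkfb1, known for its liver and muscle forms, had signals of 1144 and 473 in WT and 1259 and 1341 in p53-/- MEFs. The doxorubicin-treated WT array was the low one, 2.12-fold below untreated, against −0.27 in p53-/- MEFs. Normexp background correction brought the WT ratio of Pfkfb1 under 2-fold.

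**Figure D2:**
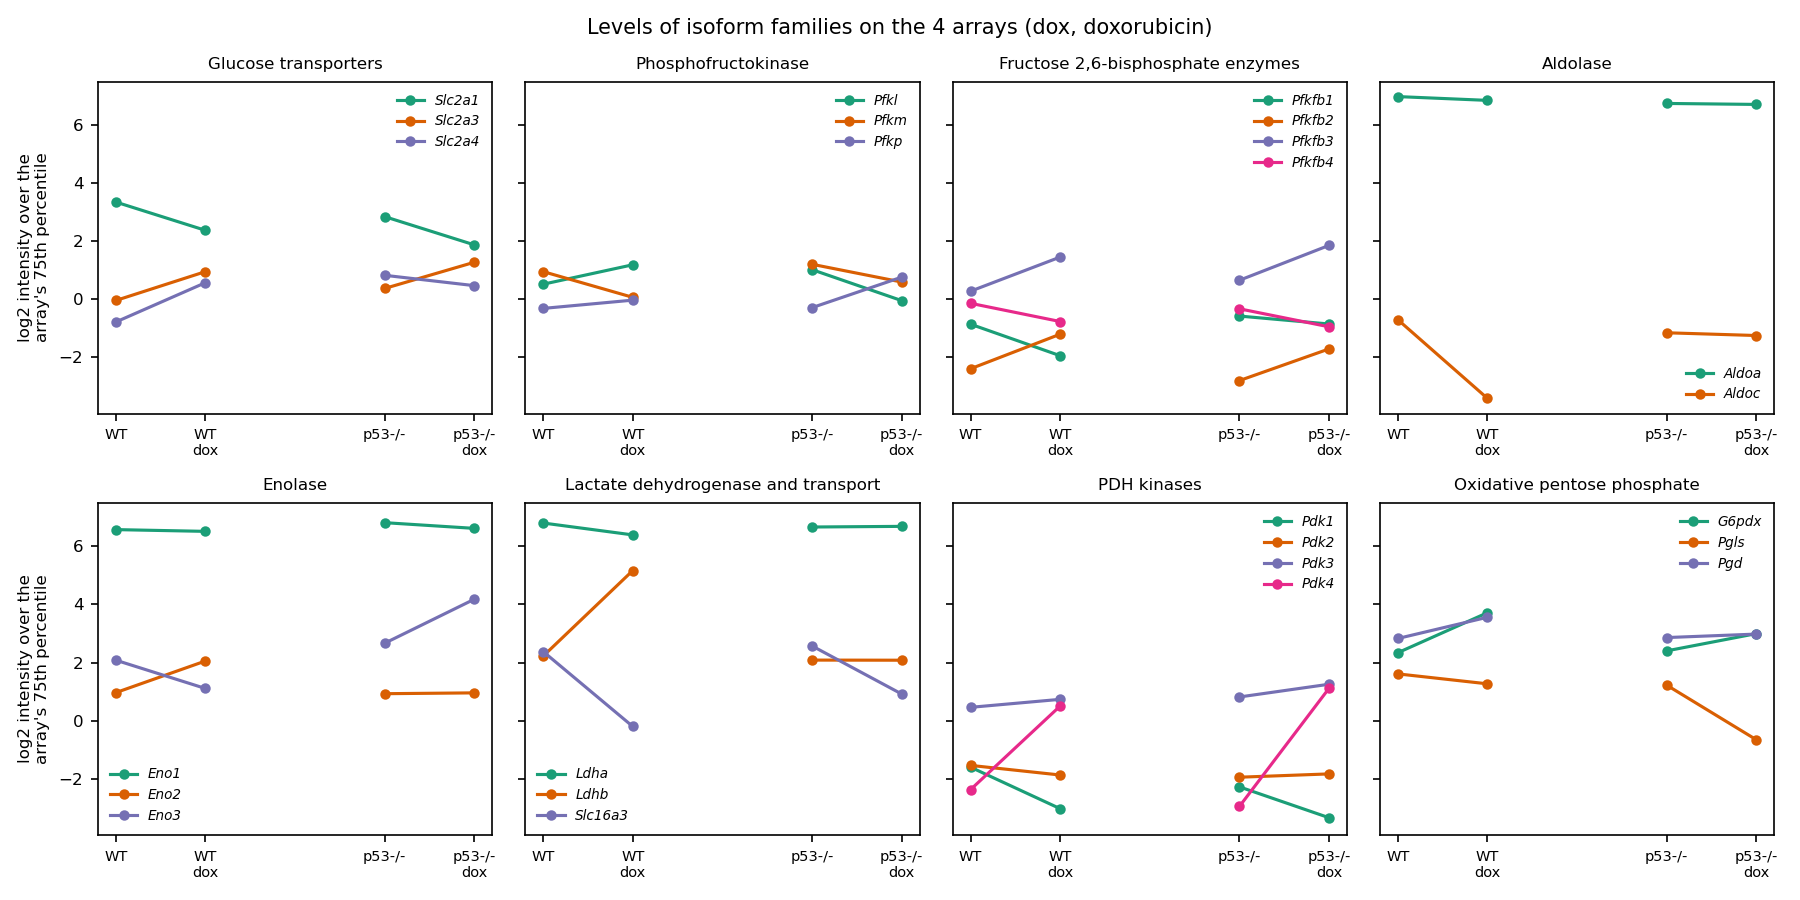
Log2 intensity, after subtracting the array's 75th percentile, for members of 8 isoform families or steps, with lines from untreated to doxorubicin-treated MEFs of each genotype (1 array per point). Only the course of a gene across arrays can be read, since different probes differ in brightness. Ldha, Aldoa and Eno1 run nearly flat, apart from a fall of Ldha in WT MEFs (−0.41). Ldhb, Aldoc and Eno3 pass 2-fold with doxorubicin in WT or p53-/- MEFs.

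In lower glycolysis, the probes used for Aldoa, Gapdh, Pgam1, Eno1 and Pkm2, with signals from 59583 to 387669, had ratios between −0.13 and 0.22 in WT and between −0.32 and 0.19 in p53-/- MEFs. Of the 10 members measured at these steps, 7 in WT and 9 in p53-/- MEFs were within 1.5-fold, against 59.3% and 64.7% of all genes. Other probes of Gapdh and Tpi1 went down to −0.59 and −0.67 in WT MEFs, past 1.5-fold. Aldoc, the brain-type aldolase, did not share this course (mm9, chromosome 11, 78140198 to 78140257). Its signals were 1272 and 171 in WT and 845 and 1019 in p53-/- MEFs. The doxorubicin-treated WT array alone was low, 6.52-fold below untreated, while the ratio in p53-/- MEFs was −0.09. The difference between these ratios was −2.61, and 218 of 16538 genes had a more negative one. Over all ways of processing, the WT ratio of Aldoc ran from −2.98 to −2.17 and the difference from −2.67 to −2.08. The size of its fold change therefore depends on the processing.

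Eno3 and Eno2 crossed. Eno3 (mm9, chromosome 11, 70475953 to 70476012) had signals of 8767 and 3918 in WT and 11913 and 43732 in p53-/- MEFs. The treated arrays were the lowest and the highest of the 4. Eno3 was 2.85-fold higher with doxorubicin in p53-/- MEFs and had a ratio of −0.97 in WT MEFs, which became −1.25 where arrays were scaled to their medians. With doxorubicin it was 8.38-fold higher in p53-/- than in WT MEFs, and 223 of 17922 genes had a larger ratio. The 4 skeletal muscle markers measured had ratios in WT and p53-/- MEFs of −1.01 and −0.79 for Acta1, 0.22 and −0.76 for Des, −2.66 and −1.56 for Myh3, and −0.98 and −1.16 for Tnnt3. Eno2, the neuron-type enolase, had signals of 4048 and 7541 in WT and 3579 and 4699 in p53-/- MEFs. Doxorubicin-treated WT was its highest array, 2.12-fold above untreated, against 0.03 in p53-/- MEFs. In WT MEFs Eno2 did not pass 2-fold under that scaling.

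Pgk1, for phosphoglycerate kinase, had signals of 65438 and 38623 in WT and 63642 and 120604 in p53-/- MEFs. The untreated arrays were close together and the treated ones lay below and above them, with ratios of −0.57 and 0.56. Neither passed 2-fold, but with doxorubicin Pgk1 was 2.35-fold higher in p53-/- than in WT MEFs. Tpi1, triosephosphate isomerase, gave −0.52 and 0.04, with its second probe at −0.67 and −0.10.

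Gapdh, often used as a reference gene, was covered by 7 probes. The brightest probe, used here, had signals of 381095, 319838, 376816 and 387669 in untreated and treated WT and untreated and treated p53-/- MEFs. Its ratio with doxorubicin was −0.06 in WT MEFs, whereas the other 6 probes lay between −0.59 and −0.35. For p53-/- over WT MEFs with doxorubicin, the brightest probe gave −0.14 and the other 6 gave 0.29 to 0.99. The brightest probe thus stood apart from the others in both comparisons, and 0 spots were saturated. The files place 1 of the 7 probes on chromosome 8 and the others on chromosome 6, and Gapdh has many near-identical processed copies, so its probes may not report the gene alone.

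**Figure D3:**
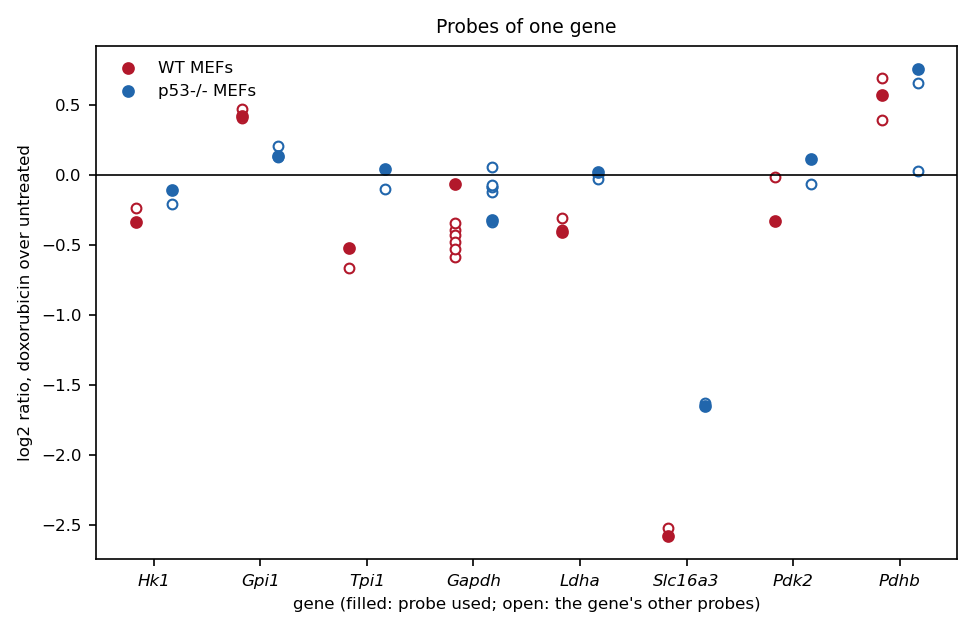
Log2 ratio of doxorubicin-treated over untreated MEFs for each probe of the 8 members with more than 1 measured probe (red, WT; blue, p53-/-; filled, the probe used). Probes of 1 gene span at most 0.52 in WT and 0.73 in p53-/- MEFs, and Slc16a3 stands below all others.

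Lactate dehydrogenase and Pdk4 gave the largest increases among the members in WT MEFs. Ldhb, whose heart-type subunit favors the oxidation of lactate to pyruvate, has its probe on chromosome 6 (mm9, 142438770 to 142438829). Its signals were 9658 and 65056 in WT and 7970 and 10229 in p53-/- MEFs. The doxorubicin-treated WT array stood far above the other 3, at 7.68-fold over untreated, and the ratio in p53-/- MEFs was 0.00. The difference between these ratios was 2.95, and 94 of 16538 genes had a larger one. Under the other ways of processing it stayed between 2.90 and 2.97. Ldha, the muscle-type subunit that favors lactate formation, was close to flat in p53-/- MEFs and somewhat lower in WT MEFs. Its WT ratio was −0.41 and ran from −0.685 to −0.37 over all ways of processing. Its 3 probes gave −0.41 to −0.31 in WT and −0.03 to 0.02 in p53-/- MEFs. In the promoters printed above, Ldha had 5 core matches, with its 2 E-boxes counted on both strands, and Ldhb had 1. Whether these matches bear on the ratios was not tested.

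Lactate leaves cells through monocarboxylate transporters. Slc16a3 (mm9, chromosome 11, 120820023 to 120820082) had signals of 10776 and 1584 in WT and 11163 and 4574 in p53-/- MEFs. Both treated arrays were below both untreated ones, by 5.96-fold and 3.14-fold, and a second, overlapping probe gave −2.52 and −1.63. In WT MEFs 186 of 17546 genes had a lower ratio, and 329 of 16981 in p53-/- MEFs. Slc16a1, for MCT1, had signals from 98.5 to 122 on the 4 arrays, near the brightest negative controls, so its ratios rest on background. Of the other pyruvate and lactate genes, 11 were on the array and 9 were measured. In WT MEFs 2 of 9 were lower and 0 higher by 2-fold, and in p53-/- MEFs 0 passed in either direction. The lower ones were Mpc1, listed as Brp44l, a subunit of the mitochondrial pyruvate carrier (−1.20), and Pdp2, a phosphatase that reactivates pyruvate dehydrogenase (−1.58). Mpc1 was just short of 2-fold in p53-/- MEFs (−0.99), and Pdp2 was at −0.68 there.

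The pyruvate dehydrogenase kinases moved apart. Pdk4, the kinase known for induction by fasting and FOXO factors (mm9, chromosome 6, 5433441 to 5433500), had signals of 401 and 2581 in WT and 244 and 5242 in p53-/- MEFs. Both treated arrays were far above both untreated ones, by 7.34-fold and 16.7-fold. The p53-/- ratio of 4.06 was exceeded by 26 of 16981 genes. The untreated p53-/- signal of 244 was below the brightest negative control of that array (250.1), so the size of that ratio rests on a signal near background. Pdk1, a known target of hypoxia-inducible factors, had signals of 686 and 224 in WT and 389 and 240 in p53-/- MEFs. Both treated arrays were below both untreated ones, by 2.69-fold and 2.09-fold, and normexp background correction brought the p53-/- ratio under 2-fold. Pdk2 and Pdk3 had ratios between −0.33 and 0.44. The subunit genes Pdha1 (−0.67 and −0.36) and Pdhb (0.57 and 0.76) did not pass 2-fold.

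In the pentose phosphate pathway, G6pdx encodes the rate-limiting dehydrogenase (mm9, chromosome X, 71654949 to 71655008). Its signals were 10477 and 23831 in WT and 9931 and 19284 in p53-/- MEFs. Both treated arrays were above both untreated ones, by 2.59-fold in WT and 1.51-fold in p53-/- MEFs. Pgls, the lactonase of the next step (mm9, chromosome 8, 74118067 to 74118603), had signals of 6325 and 4377 in WT and 4382 and 1537 in p53-/- MEFs. Doxorubicin-treated p53-/- MEFs were the low array, 3.67-fold below untreated, and 207 of 16981 genes had a lower ratio. In WT MEFs the ratio was −0.34. Pgd, the other NADPH-forming dehydrogenase, gave 0.73 and 0.12. The 3 oxidative genes therefore did not move as a group in p53-/- MEFs.

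In the non-oxidative branch, Rpia, ribose-5-phosphate isomerase, had signals of 636 and 1235 in WT and 668 and 1737 in p53-/- MEFs. It was 2.21-fold and 2.02-fold higher with doxorubicin, but under 2-fold in both where arrays were scaled to their medians, and in p53-/- MEFs with quantile normalization or normexp. Tkt and Taldo1, transketolase and transaldolase, had ratios between −0.36 and 0.19. Of 7 other pentose phosphate and nucleotide sugar genes, 5 were measured, and 2 of these were higher in WT MEFs. They were Prps2, a phosphoribosyl pyrophosphate synthetase (1.85 against 0.78 in p53-/- MEFs), and Rpe, ribulose-phosphate epimerase (1.23 against 0.52). In p53-/- MEFs it was 1, Rbks, ribokinase (1.68 against 0.67 in WT MEFs), and 0 were lower in either genotype.

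Without doxorubicin, Slc2a4 was at least 2-fold higher in p53-/- MEFs and 0 members were at least 2-fold lower, against 2.15% and 2.62% of 17317 genes, and 37 of 39 members (94.9%) were within 1.5-fold, against 82.6% of all genes. The other member outside 1.5-fold was Pdk1 (−0.68). With doxorubicin, Eno3, Aldoc, Pgk1, Slc16a3 and Pfkfb1 were higher in p53-/- MEFs, 5 of 39 (12.8%) against 11.9% of 17922 genes. Ldhb, Pgls, Pfkl and Eno2 were lower, 4 of 39 (10.3%) against 10.3%. Both shares were near the background. The ratios of the members with doxorubicin ran from −3.08 for Ldhb to 3.07 for Eno3.

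The difference of the doxorubicin ratios, WT minus p53-/-, was at least 1 for Ldhb, Pfkl, Slc2a4, Pgls and Eno2 and at most −1 for Aldoc, Eno3, Pdk4 and Pgk1. These are 5 and 4 of 39 members (12.8% and 10.3%), against 8.38% and 9.86% of 16538 genes. All 3 oxidative pentose phosphate genes had a higher ratio in WT MEFs, by 0.78 for G6pdx, 1.53 for Pgls and 0.61 for Pgd. Of 16538 genes, 8422 had a positive difference. The 6 genes for pyruvate dehydrogenase and its kinases had differences from −1.19 to −0.16 with the probes used. Other probes of Pdk2 (0.05) and Pdhb (0.04 and 0.37) were on the other side of 0, as was Pdhb with the mean of its probes (0.07). These differences share the 4 arrays with the comparisons above and add no further measurement.

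**Figure D4:**
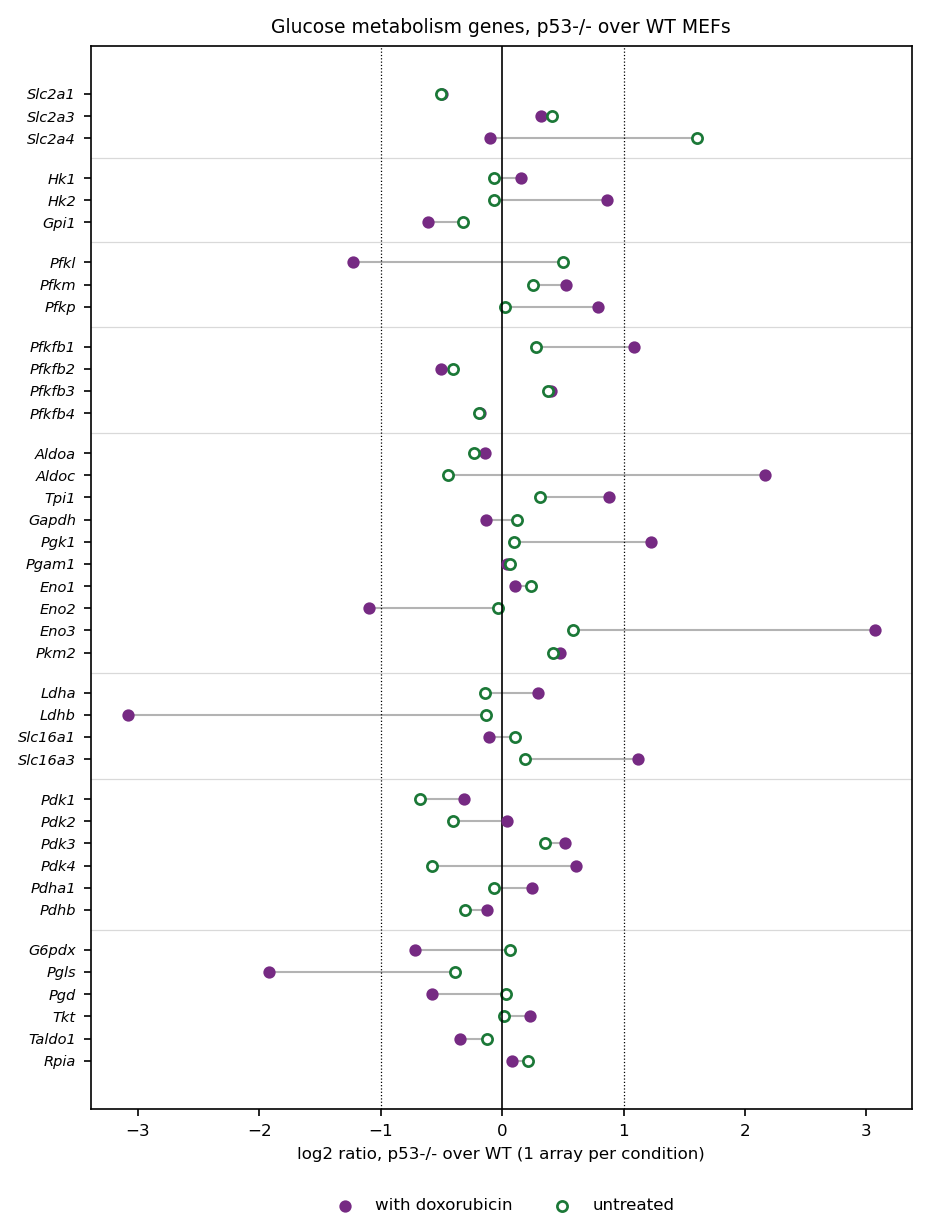
Log2 ratio of the genotypes (p53-/- over WT) for each of 39 measured members, with filled points for doxorubicin-treated and open points for untreated MEFs (1 array per condition). Open points stay within 2-fold (dotted lines) except for Slc2a4 (1.61), and filled points reach −3.08 for Ldhb and 3.07 for Eno3.

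Further enzymes of glycolysis and gluconeogenesis were examined as a list. Of 20 such genes on the array, 9 were measured with and without doxorubicin in each genotype. In WT MEFs 2 were higher and 0 lower. The higher ones were Pgm2l1, which makes glucose 1,6-bisphosphate (2.52 against 0.91 in p53-/- MEFs), and Pcx, pyruvate carboxylase (1.69 against 0.58). In p53-/- MEFs 1 was higher and 0 lower. The higher one was Bpgm, which makes 2,3-bisphosphoglycerate (1.79 against 0.50 in WT MEFs). These counts leave out genes that were above background on only 1 of the arrays compared. Pck2, the mitochondrial phosphoenolpyruvate carboxykinase, had signals of 582 and 49.9 in WT and 484 and 77.0 in p53-/- MEFs, at least 10.2-fold and 7.16-fold lower with doxorubicin. Fbp1, fructose bisphosphatase, was at least 3.31-fold and 2.72-fold higher, and Gapdhs, the sperm-type enzyme, at least 4.84-fold higher in WT MEFs. These 3 genes were named after their values were seen.

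Regulators of these genes were examined by lists. Of all genes measured, 11.0% were higher and 10.4% lower by 2-fold with doxorubicin in WT MEFs. These shares were 9.24% and 6.89% in p53-/- MEFs, and the counts of the lists are small. Of 9 hypoxia pathway regulators, 7 were measured in WT and 8 in p53-/- MEFs. In each genotype 1 was higher, Egln3, a HIF prolyl hydroxylase that is itself induced by hypoxia (1.40 and 1.76), and in p53-/- MEFs 1 was lower, Hif3a (−1.33). Hif3a was also at least 3.12-fold lower in WT MEFs, where its signal went from 158 to 37.0, which was not well above background. Hif1a had ratios of −0.65 and −0.86 and was named after its values were seen. Among 13 textbook hypoxia-induced genes outside glucose metabolism, 3 were higher and 2 lower in WT, and 3 higher and 1 lower in p53-/- MEFs, with medians of 0.06 and 0.45. Ankrd37 was higher in both genotypes (1.18 and 1.19). Car12, a carbonic anhydrase, was higher in WT MEFs (2.63 against 0.08), as was Hmox1 (1.45 against 0.44). Ndrg1 (1.63 against 0.06) and Bnip3l (1.40 against 0.48) were higher in p53-/- MEFs. The mitophagy receptor Bnip3 was lower in WT MEFs (−1.50 against 0.48), as was P4ha2 (−1.22 against −0.62). Vegfa, for the vascular growth factor, was lower in p53-/- MEFs (−1.08) and at −0.76 in WT MEFs.

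Of 11 genes listed with MYC and MondoA, 2 were higher in WT and 6 in p53-/- MEFs, against 11.0% and 9.24% of all genes. In both genotypes 0 were lower, and the medians were 0.20 and 1.13. Among the 6, Mxd4 (1.13) and Arrdc4 (1.17) lay nearer to the 2-fold limit than the array-median shift of −0.30. Txnip, a MondoA target that limits glucose uptake, had signals of 4219 and 2992 in WT and 1515 and 11038 in p53-/- MEFs, with ratios of −0.31 and 2.50. Mxd1, a MAX partner that opposes MYC, was higher in both (1.51 and 2.01), as was Mlxipl, for ChREBP (1.54 and 1.69). Mycn was higher in p53-/- MEFs (1.75 against 0.65 in WT MEFs). Myc itself gave −0.45 and 0.10, named after its values were seen.

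Among 12 p53-linked metabolic genes, 4 were higher and 2 lower in WT MEFs, and 2 of 11 measured were higher and 1 lower in p53-/- MEFs. Gls2, the p53-induced glutaminase, was higher in WT MEFs (3.40 against 0.96), as were Lpin1 (1.84 against −0.56) and Cpt1c (1.45 against −0.82). Park2 was higher in both (1.06 and 1.37), and Rrad in p53-/- MEFs (1.52 against 0.78). Aifm1 (−1.05) and Pank1 (−1.22) were lower in WT MEFs, and Sesn2 in p53-/- MEFs (−1.34), where Pank1 was at least 4.07-fold lower. Tigar, a fructose bisphosphatase that diverts glucose into the pentose phosphate pathway, is listed as 9630033F20Rik. It had ratios of 0.88 and 0.71, past 2-fold in neither genotype, and was named after its values were seen. Of 9 NADPH and NRF2-linked genes, 3 were higher and 1 lower in WT, and 1 was higher and 1 lower in p53-/- MEFs. Nqo1, the quinone reductase, was higher in both (1.62 and 1.53). Gclc (1.09 against 0.70) and Txnrd1 (1.02 against 0.12) were higher in WT MEFs, and Slc7a11 was lower there (−1.37 against 0.01). Idh1, the cytosolic NADP-dependent isocitrate dehydrogenase, was lower in p53-/- MEFs (−1.02) and just short of 2-fold in WT MEFs (−0.91).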

How the data were processed

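Total RNA of WT and p53-/- MEFs, untreated or treated with doxorubicin, was hybridized by the authors to 4 Agilent mouse arrays after Cy3 labeling, 1 array per condition. Spots were read by Feature Extraction (version 10.7.3.1 per the file headers). In the deposited intensities, that program had subtracted background and spatial trends, and arrays were not normalized to each other. The deposited value table held the same intensities, and the deposited mean spot and local background intensities were used for normexp. Deposited flags, coded 0 or 1, name outlier and saturated spots and those well above background. Positions of probes were taken from the files (mm9).

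Outlier spots were left out, repeat spots were averaged on the log2 scale, and each array was scaled to the 75th percentile of its 39429 probes that are not controls. Its signals were 2074 and 1819 for untreated and treated WT, and 1881 and 2421 for untreated and treated p53-/- MEFs. Of the probes, 56.9% to 62.9% were well above background, and the brightest of 153 negative control spots reached 108, 77.5, 250.1 and 120 in this order. The probe brightest on average stood for its gene. A ratio needed a spot well above background on both arrays, and a difference of ratios on all 4. Genes at least 2-fold apart were counted. Precision is limited by the number of arrays, and no test was made.

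All members were described, with values per array for those past 2-fold in any comparison. From the other lists, up to 4 genes past 2-fold per genotype were eligible for naming by size. The members and lists were chosen with earlier results of these data known. Alternatives were the array median, quantile normalization, normexp (limma 3.58.1, R 4.3.3, offset 50), dropping the background filter, requiring it on all 4 arrays, requiring signals above the brightest negative control, averaging the probes of a gene, the deposited table, probes named through RefSeq, and limits of 1.5-fold and 3-fold. The steps were tested on simulated arrays. Python 3.11.15, numpy 2.4.6, pandas 2.3.3 and matplotlib 3.10.9 were used. Promoter sequences are from RefSeq (GRCm38.p6).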

Additional observations from a re-analysis of the deposited data

Results flagged for a closer look

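In 2 members the doxorubicin-treated arrays lay on opposite sides of the untreated ones in WT and p53-/- MEFs, by at least 1.5-fold each. Eno3 gave −0.97 (WT) and 1.51 (p53-/-), a difference of −2.48, and Pfkl had ratios of 0.67 and −1.06, a difference of 1.73. With 1 array per condition these differences were not tested. The limit of 1.5-fold each way sets these differences above the spread of repeat spots (SD 0.16 for a difference) by construction. Under the other ways of processing they stayed between −2.49 and −2.44 for Eno3 and between 1.67 and 1.76 for Pfkl. Scaling to the array median shifted all genes by similar amounts in both genotypes (−0.27 and −0.30), which nearly cancels in a difference.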

How the results depend on the processing

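Scaling to the array median moved the median ratio of the members to −0.34 in WT and −0.30 in p53-/- MEFs, and gave 4 higher and 8 lower members in WT and 2 higher in p53-/- MEFs. Quantile normalization moved the median of p53-/- over WT MEFs with doxorubicin from 0.08 to 0.22. Normexp left 3 lower members in WT MEFs. With a limit of 1.5-fold, 10 members were lower in WT and 7 in p53-/- MEFs with doxorubicin, 1 was lower in untreated p53-/- than in untreated WT MEFs, and 9 exceeded WT in p53-/- MEFs given doxorubicin. With 3-fold, 2 were higher and 2 lower in WT, 1 higher and 2 lower in p53-/- MEFs, and for p53-/- over WT MEFs given doxorubicin 2 were higher and 2 lower. The causes of these shifts were not tested, other than that a wider or narrower limit counts fewer or more genes by construction. Over all settings other than these limits, the members' medians ran from −0.34 to −0.04 and from −0.30 to 0.04 with doxorubicin in WT and p53-/- MEFs, from −0.02 to 0.07 and from 0.01 to 0.22 for p53-/- over WT MEFs without and with it, and from −0.16 to −0.04 for the difference. The other counts stayed within 1.5 times their value, and no member past 2-fold changed direction under any alternative that gave it a value. The deposited table gave the same values, and 2 probes named through RefSeq changed no count by more than 1.5 times. Of the values of single members under 8 alternatives, 143 moved by more than the spread of repeat spots and 1410 did not. Alternatives that change only the background filter cannot change a value that is given. Averaging probes cannot do so for the 29 members with 1 probe. Many of the 1410 were therefore fixed in advance. Pdk4 had no ratio in p53-/- MEFs where a signal above the brightest negative control was required.

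No paired analysis was possible because each condition has 1 array. Leaving out an array and taking the slide as a block were not possible for the same reason, and all arrays were on 1 slide. Weak signals limit Slc16a1, Pgam2 and the untreated p53-/- values of Pdk4 and Pfkfb2.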
